A study of Macaca fascicularis with 20 samples.

Results

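The miRNAs miR-204 and miR-211 were followed across 7 laser-cut regions of the fetal visual cortex of the crab-eating macaque. They are the 2 members of 1 miRNA family and were taken by name (mir-204 and mir-211 in the tables), with both arms of each hairpin, from the 828 miRNA names that 2 deposited count tables share, which makes 4 arms of 1656. The regions were the ventricular zone (VZ), the outer subventricular zone (OSVZ) and the cortical plate (CP) of area 17 and of area 18, with the OSVZ of area 17 cut in a part nearer the ventricle (OSVZ_17int, inner) and a part nearer the surface (OSVZ_17ext, outer). Each region had 2 libraries, the first from embryonic day 80 (set 1) and the second from embryonic day 79 (set 2), with no genetic change or treatment in any sample. VZ and CP thus had 4 libraries each and OSVZ had 6. The labels do not tie the regions of a set to a single animal, so p-values reflect only how far these libraries spread, which may be partly technical.

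Mature miR-204-5p and miR-211-5p have the same seed, the stretch near the 5′ end that pairs with target messenger RNAs, and differ at only a few bases towards the 3′ end. Because of that shared seed they are predicted to bind largely the same targets. In human, each hairpin lies in an intron of a melastatin-type ion channel gene, miR-204 in TRPM3 and miR-211 in TRPM1. The first is best known from the retinal pigment epithelium, the lens and the choroid plexus, and the second from melanocytes. The 3p arm is the other strand of the hairpin and is usually degraded.

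The libraries held 3603478 to 9517217 counts (median 6729539). Levels are given as CPM, counts scaled to a common library size, after TMM normalization. Among zone markers, miR-92b-3p, a progenitor miRNA, spanned 25500 to 52130 CPM in VZ, 13460 to 25290 in OSVZ and 518 to 1081 in CP. The synaptic miR-138-5p ran the other way, with 208 to 573 CPM in VZ, 174 to 480 in OSVZ and 1952 to 6041 in CP. Other abundant progenitor arms did not fall so towards CP. In VZ, OSVZ and CP, miR-17-5p averaged 7061, 10330 and 11020 CPM, miR-25-3p 2791, 4711 and 2024 CPM, and miR-106b-5p 1577, 1909 and 1418 CPM. The neuronal miR-124 was nearly missing, with 0 to 21 counts per library over both arms. Several genes encode it, and the handling of reads with several matches is not stated, so its level is not interpreted here. The same limit holds for any other miRNA with several genes, and its part in the low counts was not tested. VZ_18 replicate 1 and VZ_17 replicate 2 had stood apart in an earlier analysis of these data, and the VZ comparisons of the 5p arms are given also without them where they moved by over 1.5 times or changed their call. Counts come from amplified reads without molecular identifiers, so intervals on shares cover counting error only.

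miR-204-5p was among the more abundant miRNAs of the cortical plate and lower in the germinal zones. In CP_17 it stood at 7237 CPM in set 1 and 7021 CPM in set 2, and in CP_18 at 4894 and 6399 CPM. By abundance it ranked between 17 and 26 of 1656 arms in these 4 libraries, and between 39 and 150 in the germinal libraries. In VZ_17 it was at 180 CPM in set 1 and 287 CPM in set 2. In VZ_18 the libraries were far apart, at 224 and 1905 CPM. The inner OSVZ of area 17 held 146 and 275 CPM, the outer OSVZ of area 17 held 589 and 692 CPM, and OSVZ_18 held 928 and 925 CPM. Every CP library was above every germinal library. The lowest CP value was 2.57 times the highest germinal value, or 1.46 times it when levels were taken against library totals without TMM.

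**Figure D1:**
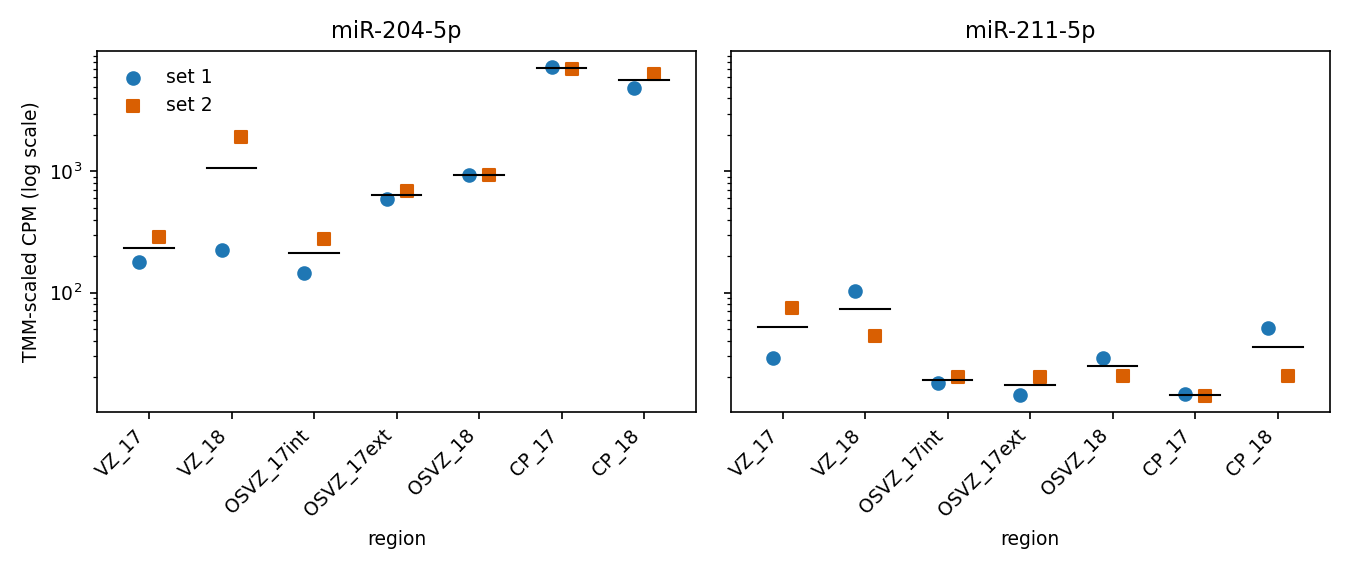
TMM-scaled CPM (log axis) of miR-204-5p, left, and miR-211-5p, right, in each library of the 7 regions, with circles for set 1, squares for set 2 and a line at the mean of the 2 libraries. For miR-204-5p the 4 CP libraries lie between 4894 and 7237 CPM and the 10 germinal ones between 146 and 1905 CPM, while miR-211-5p stays between 14.2 and 103 CPM in all 14.

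VZ and OSVZ hold dividing progenitors and CP holds young neurons, so the first comparisons set the germinal zones against CP. miR-204-5p was lower in VZ than in CP by a log2 difference of -3.84 ± 0.46 (SE), which is 14.3-fold, at 649 ± 839 CPM in VZ (SD, n = 4) and 6388 ± 1057 CPM in CP (SD, n = 4). The edgeR quasi-likelihood test gave an adjusted p of 1.47e-07, with a 95% interval of the log2 difference from -4.76 to -2.91. In OSVZ, at 593 ± 327 CPM (SD, n = 6), it was lower than in CP by -3.46 ± 0.41 (SE), which is 11.0-fold, with an adjusted p of 1.65e-07 and an interval from -4.29 to -2.62. Both comparisons share the 4 CP libraries. In bulk tissue, fewer cells of a type and less RNA per cell cannot be told apart.

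Of the 3 family arms that passed the filter on low counts, miR-204-5p was the 1 called in each of these comparisons, where 7.37% of the 1139 arms tested were called in VZ (2.63% higher and 4.74% lower than CP) and 6.32% in OSVZ (2.11% higher and 4.21% lower). Of the called arms, 35.7% in VZ and 33.3% in OSVZ were higher than CP, which became 53.6% and 52.8% with library totals. By p it was number 6 of all arms for VZ and number 5 for OSVZ. Over all tested arms the median log2 difference from CP was -0.22 in VZ and -0.20 in OSVZ. Taken within each set, the OSVZ level was 9.37-fold below CP in set 1 and 9.53-fold below in set 2. The VZ level was 30.0-fold below CP in set 1 and 6.12-fold below in set 2. Without VZ_18 replicate 2, the other 3 VZ libraries were at 230 ± 53.5 CPM (SD, n = 3) and the log2 difference from CP was -4.72. Without VZ_18 replicate 1 it was -3.14, and without VZ_17 replicate 2 and VZ_18 replicate 1 together -3.19, with the call kept each time. Over the 7 regions taken without zones, miR-204-5p differed at an adjusted p of 2.32e-08, where 5.18% of arms were called.

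**Figure D2:**
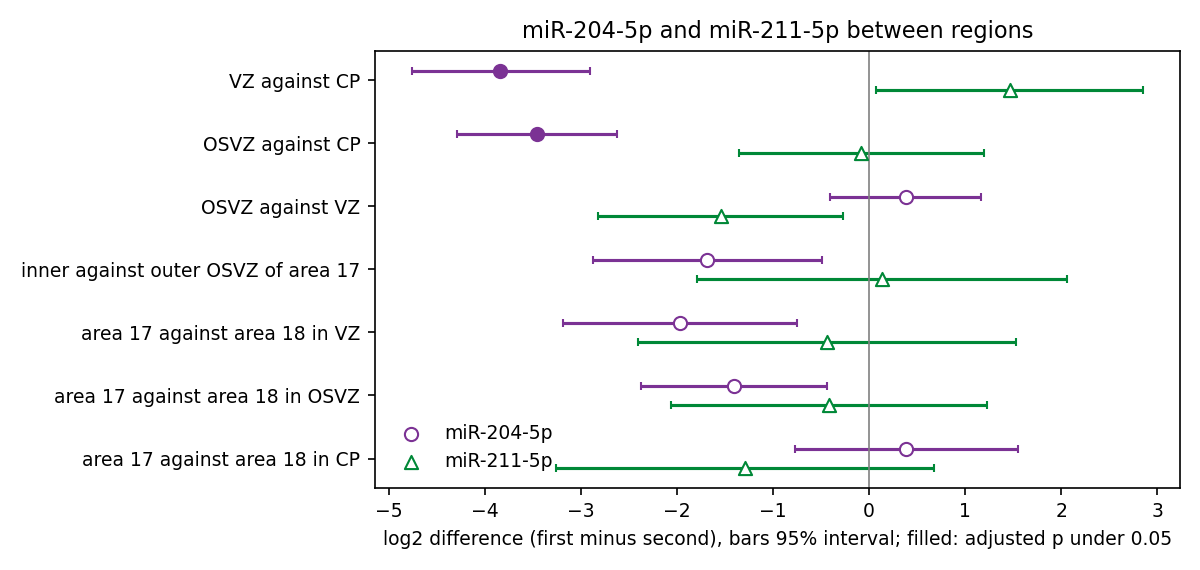
Fitted log2 differences (horizontal axis) of miR-204-5p (circles) and miR-211-5p (triangles) in 7 comparisons, with 95% intervals as bars and filled symbols at an adjusted p under 0.05. The filled symbols are miR-204-5p in VZ against CP at -3.84 and in OSVZ against CP at -3.46.

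Within the germinal zones, the region means of miR-204-5p differed, but none of the differences passed over all arms. Ordered by mean, the regions ran from CP_17 (7129 CPM) and CP_18 (5647 CPM) to VZ_18 (1065 CPM), OSVZ_18 (926 CPM), OSVZ_17ext (641 CPM), VZ_17 (233 CPM) and OSVZ_17int (210 CPM). The libraries of VZ_18, at 224 and 1905 CPM, spanned those of OSVZ_18 and OSVZ_17ext and overlapped those of VZ_17 and OSVZ_17int. VZ_17 overlapped OSVZ_17int as well. With 2 libraries each, in an order made from the same means, a lack of overlap between other neighbours says little.

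The inner sublayer of the area 17 OSVZ, nearer the ventricle, held less miR-204-5p than the outer one in both sets, 4.05-fold less in set 1 and 2.51-fold less in set 2. The fitted log2 difference was -1.69 ± 0.59 (SE, interval -2.88 to -0.49), with an unadjusted p of 0.0069 that did not pass over all arms (adjusted p = 0.938). No arm did, as 0% of arms were called, 46 had an unadjusted p under 0.05, and DESeq2 called 2. With VZ_17 replicate 2 and VZ_18 replicate 1 left out, miR-204-5p was called along with other arms, though its difference moved only to -1.79. The comparison holds no VZ library, but all regions share an estimate of the spread.

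In OSVZ, area 17 was below area 18 in both sets, 2.52-fold in set 1 and 1.91-fold in set 2, and the fitted difference of -1.40 ± 0.48 (SE, interval -2.37 to -0.43) did not pass (adjusted p = 1). There 0% of arms were called, 29 had an unadjusted p under 0.05 and DESeq2 called 0. In VZ, area 17 was 1.24-fold below area 18 in set 1 and 6.65-fold below in set 2, for a difference of -1.97 ± 0.60 (SE, adjusted p = 0.298), where 0.176% of arms were called. That value turns on VZ_18. It was -0.15 without VZ_18 replicate 2, and -2.74 with an adjusted p of 0.0158 without VZ_18 replicate 1. Without VZ_17 replicate 2 and VZ_18 replicate 1 it was -2.89 (adjusted p = 0.0617). In CP the areas differed by 0.39 ± 0.57 (SE, interval -0.77 to 1.55, adjusted p = 0.994), where 0% of arms were called, 36 had an unadjusted p under 0.05 and DESeq2 called 3. OSVZ and VZ differed by 0.38 ± 0.39 (SE, interval -0.40 to 1.17, adjusted p = 0.736), where 0.0878% of arms were called, and the direction turned to -0.15 without VZ_18 replicate 1.

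The drop from CP to the germinal layers was compared between areas. In area 17 the log2 ratio of OSVZ to CP was -4.30 in set 1 and -3.86 in set 2, and in area 18 it was -2.40 and -2.79. The test of this interaction gave -1.79 ± 0.75 (SE), with an unadjusted p of 0.0231 and an adjusted p of 1, where 0% of arms were called, 34 had an unadjusted p under 0.05 and DESeq2 called 0. For VZ to CP the log2 ratios were -5.33 and -4.61 in area 17 and -4.45 and -1.75 in area 18. Here the interaction was -2.36 ± 0.82 (SE, adjusted p = 0.64), where 0.0878% of arms were called, and -0.51 without VZ_18 replicate 2.

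miR-211-5p was less abundant than its relative in every library, most closely in VZ_18 replicate 1 (103 against 224 CPM), and its levels followed another order. It stood at 28.8 and 75.2 CPM in VZ_17 and at 103 and 44.1 CPM in VZ_18, in set 1 and set 2. The inner OSVZ of area 17 held 18.0 and 20.25 CPM, the outer OSVZ of area 17 held 14.3 and 20.4 CPM, and OSVZ_18 held 28.85 and 20.6 CPM. In CP_17 it was at 14.5 and 14.2 CPM, and in CP_18 at 51.4 and 20.4 CPM. The VZ libraries were the highest on average, with 62.8 ± 33.0 CPM (SD, n = 4) against 20.4 ± 4.78 CPM in OSVZ (SD, n = 6) and 25.1 ± 17.7 CPM in CP (SD, n = 4). VZ overlapped CP and just touched OSVZ, whose highest library, at 28.85 CPM, was level with the lowest VZ library at 28.81 CPM. Against library totals without TMM the overlap with OSVZ was wider. There VZ_17 replicate 1, the lowest VZ library, was at 21.3 CPM, and OSVZ_17int replicate 2, the highest of OSVZ, at 30.65 CPM. By mean the regions ran from VZ_18, VZ_17, CP_18 and OSVZ_18 to OSVZ_17int, OSVZ_17ext and CP_17. Each overlapped the next except OSVZ_18 and OSVZ_17int, which were 20.6 to 28.85 CPM and 18.0 to 20.25 CPM. With 2 libraries each, that gap says little.

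With the filter on low counts as above, edgeR called miR-211-5p in none of the comparisons. For VZ against CP the log2 difference was 1.46 ± 0.68 (SE, interval 0.08 to 2.85, unadjusted p = 0.0393, adjusted p = 0.213), higher in VZ by 2.0-fold in set 1 and 3.45-fold in set 2. It passed with DESeq2 (1.68, adjusted p = 0.0115) and with edgeR on arms of at least 10 CPM only (1.82, adjusted p = 0.0404). In this comparison DESeq2 called 169 of the 1139 arms, where edgeR called 84, and edgeR on arms of at least 10 CPM called 93 of 379. The difference was 0.91 without VZ_17 replicate 2 and VZ_18 replicate 1. For OSVZ against VZ it was -1.55 ± 0.63 (SE, adjusted p = 0.44), with ratios of 0.342 in each set. It passed with DESeq2 (-1.63, adjusted p = 0.0415), which called 28 arms in this comparison where edgeR called 1. With VZ_17 replicate 2 left out it was -1.06 (adjusted p = 0.85), and with VZ_18 replicate 1 left out as well -0.83 (adjusted p = 0.786). For OSVZ against CP it was -0.08 ± 0.63 (SE, interval -1.36 to 1.19, adjusted p = 0.979), a value whose sign turned under the other scalings (0.05 with DESeq2 size factors and 0.13 with library totals). Inner against outer OSVZ of area 17 gave 0.13 ± 0.95, and area 17 against area 18 gave -0.43 ± 0.97 in VZ, -0.42 ± 0.81 in OSVZ and -1.29 ± 0.97 in CP (SE), with adjusted p between 0.923 and 1. The interactions of area with zone were 0.86 ± 1.34 with VZ and 0.87 ± 1.26 with OSVZ, each against CP (SE, adjusted p = 1). Over the 7 regions the adjusted p was 0.493.

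Since the mature 5p arms share a seed, their counts were also read as 1 pool. Summed, they came to 6413 ± 1040 CPM in CP (SD, n = 4), 613 ± 329 CPM in OSVZ (SD, n = 6) and 712 ± 828 CPM in VZ (SD, n = 4). The summed arm differed from CP by -3.64 in VZ and by -3.40 in OSVZ (adjusted p = 1.39e-07 and 7.44e-08). The share that miR-211-5p took of this pool differed widely. It was 0.200% in CP_17 replicate 1 (exact Clopper-Pearson 95% interval 0.154% to 0.256%), 0.201% in CP_17 replicate 2, 0.318% in CP_18 replicate 2 and 1.04% in CP_18 replicate 1. In OSVZ it was 2.18% to 11.0%, with the highest values in the inner sublayer of area 17 (11.0% and 6.85%). In VZ it was 13.8% and 20.8% in area 17 and 31.5% (interval 30.0% to 33.1%) and 2.26% in area 18. All germinal libraries lay above all CP libraries, with a mean difference of -9.22 percentage points. The pool is mostly miR-204-5p, which was higher in every CP library, so this separation is not independent of that result. The exact permutation test within sets gave a 2-sided p of 0.0771 (adjusted p = 0.0816 over 2 tests). No rearrangement within sets could put the CP mean lower, so the other arrangements counted in this p went the opposite way. A lower CP share could thus not reach the 0.00227 of 1 arrangement in 441, and the test cannot decide whether the share differed. The sources used here do not give how near-identical reads were split between the 2 names. The part of misassigned reads in the counts of miR-211-5p, which were 63 to 232 in CP, was not tested.

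**Figure D3:**
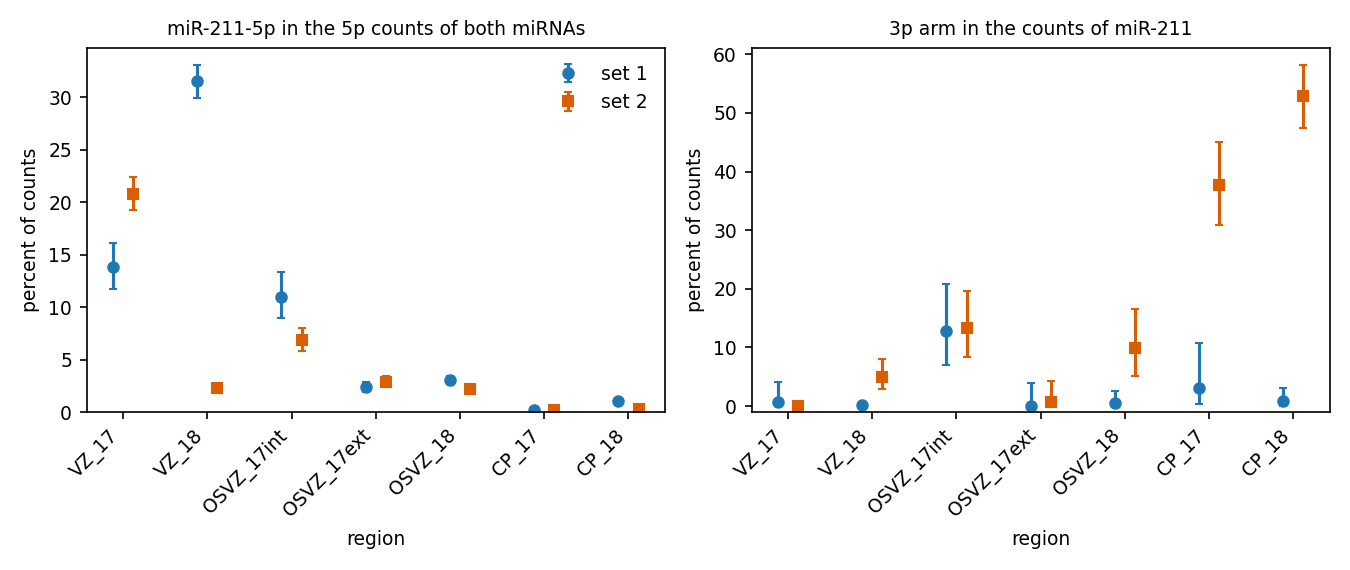
Percent of counts in each library (vertical axis) by region, with exact 95% binomial intervals as bars, circles for set 1 and squares for set 2. On the left is miR-211-5p among the 5p counts of both miRNAs, at most 1.04% in CP and up to 31.5% in VZ, and on the right the 3p arm among miR-211 counts, at 37.7% and 52.8% in the CP libraries of set 2 and at most 13.3% in all others.

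The 3p strand of miR-204 was nearly missing. All 14 libraries together held 28 counts of miR-204-3p against 204107 of miR-204-5p. The counts were 5, 0, 0 and 2 in CP, 0 to 4 in OSVZ and 1 to 6 in VZ, and 4 of 14 libraries had 0, which allows up to 0.665 CPM after scaling where the limit is widest. The arm was removed by the filter and not tested. Its share of miR-204 counts was 0.0050% ± 0.0075 in CP (SD, n = 4) and 0.0716% ± 0.0771 in the germinal libraries (SD, n = 10), a difference of -0.0666 percentage points that did not pass the exact permutation test (2-sided p = 0.0816, adjusted p = 0.0816). With 0 to 6 counts behind each share, the arm balance of miR-204 cannot be read more finely.

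miR-211-3p was low but unevenly spread, with 323 counts in all, of which the CP libraries of set 2 held 72 (CP_17) and 180 (CP_18). The CP libraries of set 1 held 2 each. In OSVZ the counts were 13 and 21 in the inner sublayer of area 17, 0 and 1 in the outer sublayer, and 1 and 12 in area 18, for set 1 and set 2. In VZ they were 1 and 0 in area 17 and 2 and 16 in area 18. The 3p strand thus took 52.8% of miR-211 counts in CP_18 replicate 2 (exact interval 47.3% to 58.2%) and 37.7% in CP_17 replicate 2 (30.8% to 44.98%), but 3.08% and 0.855% in their set 1 counterparts. In the inner OSVZ it took 12.7% and 13.3%. The arm was not called anywhere. It was at -3.26 ± 1.81 for VZ against CP (adjusted p = 0.298, and -1.82 without VZ_17 replicate 2 and VZ_18 replicate 1), -2.56 ± 1.45 for OSVZ against CP (adjusted p = 0.43) and 6.02 ± 2.70 for inner against outer OSVZ (adjusted p = 0.938, SE throughout), the last set by counts of 0 and 1 in the outer sublayer.

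Arms with a pattern like miR-204-5p were looked for among 377 other arms whose mean reached 10 CPM, by Pearson's r of log2 CPM over the 14 libraries, which share their scaling and their zone differences. The most alike were miR-338-5p (r = 0.911), from an intron of the neuronal kinase gene AATK and known in oligodendrocytes and neurons, miR-323b-3p (0.906), miR-1271-5p (0.896), miR-487b-3p (0.89) and the activity-regulated neuronal miR-132-3p (0.867). Hairpins of miR-323b and miR-487b lie, in human, in the imprinted cluster near MEG3. miR-323b-3p was at 26.8 ± 6.43 CPM in CP, 4.63 ± 4.02 CPM in OSVZ and 1.4 ± 1.2 CPM in VZ (SD, n = 4, 6 and 4). It thus reached the mean of 10 CPM only through CP, where miR-204-5p was high, so the filter favoured its likeness. miR-338-5p was at 186 ± 30.0 CPM in CP, 28.1 ± 13.5 CPM in OSVZ and 37.1 ± 16.2 CPM in VZ (SD, n = 4, 6 and 4), and miR-132-3p at 553 ± 224, 165 ± 73.5 and 137 ± 36.03 CPM. Over the 10 germinal libraries alone, miR-1271-5p kept the highest r of these 5, at 0.813, with 112 ± 35.7 CPM in VZ, 141 ± 48.2 CPM in OSVZ and 252 ± 58.6 CPM in CP. The least alike were miR-28-3p (-0.872) and the progenitor arms miR-92b-5p (-0.871) and miR-92b-3p (-0.849). For the last, r was -0.0924 over the germinal libraries alone.

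miR-211-5p had r = -0.293 with miR-204-5p over the same libraries. Closest to it were miR-34b-3p (0.701), a miRNA of multiciliated cells, miR-582-3p (0.653), miR-494-3p (0.641), miR-183-3p (0.638), known from sensory cells, and miR-760-3p (0.623). Of these, miR-34b-3p, miR-582-3p and miR-494-3p averaged under 10 CPM in both OSVZ and CP. They thus reached the mean of 10 CPM only through VZ, where miR-211-5p was highest on average, so the filter favoured their likeness. In CP, miR-183-3p averaged 11.26 CPM, and miR-760-3p averaged over 10 CPM in each zone. The part of ciliated or sensory cells in the likeness was not tested. In VZ miR-34b-3p averaged 57.4 ± 71.7 CPM, with 4.28 ± 3.53 in OSVZ and 4.32 ± 5.78 in CP (SD). It reached 153 CPM in VZ_18 replicate 1, the library where miR-211-5p was highest too. The order differed elsewhere in VZ. VZ_17 replicate 2 had 4.33 CPM of miR-34b-3p with 75.2 CPM of miR-211-5p, and VZ_18 replicate 2 had 71.3 with 44.1 CPM. Least alike were miR-17-5p (-0.813), miR-15a-5p (-0.695) and miR-151-5p (-0.688), where miR-17-5p averaged 7061 ± 2788 CPM in VZ, 10330 ± 3327 in OSVZ and 11020 ± 3041 in CP (SD).

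Markers of the cells that are known for this family, and of others the cuts could hold, were set beside it. The lists were chosen with earlier results of these data known. Their calls beside the shares of all arms are thus a description and not a test. The neuronal list, 20 arms of which 19 were tested, summed to 16730 to 24910 CPM in CP, 2794 to 6029 CPM in OSVZ and 3003 to 4572 CPM in VZ. Of the 19, 8 were lower and 0 higher in VZ than in CP (median log2 difference -1.70), and 10 were lower and 0 higher in OSVZ (median -2.18), against the 4.74% and 4.21% of all arms that were lower. Among them miR-139-5p, an intronic miRNA of the phosphodiesterase gene PDE2A, was at -3.35 ± 0.39 in VZ and -2.25 ± 0.34 in OSVZ against CP, and miR-138-5p at -3.63 ± 0.39 and -3.42 ± 0.36 (SE). The abundant miR-129-3p and miR-218-5p differed less in VZ, at -1.15 ± 0.36 and -1.70 ± 0.37, and were at -2.32 ± 0.34 and -2.24 ± 0.35 in OSVZ (SE). The difference of miR-204-5p, -3.84 in VZ and -3.46 in OSVZ, was near that of miR-138-5p in each zone and larger than the list medians. The neuronal sum and miR-204-5p were both high in the CP libraries, whereas in the germinal libraries VZ_18 replicate 2 had 1905 CPM of miR-204-5p with a neuronal sum of 3483 CPM.

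For choroid plexus and ependyma, the list held arms from introns of the serotonin receptor gene HTR2C and the miR-34b/c and miR-449 families of ciliated cells. Its 22 arms summed to 17.3 to 114 CPM in CP, 29.2 to 221 CPM in OSVZ and 11.0 to 454 CPM in VZ. Of 18 tested, 1 was higher in VZ than in CP and 0 lower (median 1.32), against 2.63% and 4.74% of all arms, and for OSVZ against CP 0 were called in either direction by edgeR (median 0.43). No name of the list was at 0 in every library, but miR-1264 and miR-449c stayed under 10 CPM in all of them. In the CP libraries, where miR-204-5p was highest, miR-1298-5p, an HTR2C arm, was at 0 to 7.38 CPM and miR-448-3p at 0.690 to 13.2 CPM. Also on the list, miR-764-5p averaged 15.9 ± 14.5 CPM in CP, 24.4 ± 46.55 in OSVZ and 14.7 ± 22.8 in VZ (SD). Its log2 difference from CP was -1.05 ± 0.94 in VZ and -0.94 ± 0.87 in OSVZ (SE). For miR-1298-5p the differences were 2.78 ± 1.26 and 1.44 ± 1.17 (SE), the other way. Neither arm was called by edgeR in either zone. The highest sum of the list, 454 CPM, was in VZ_18 replicate 2, with miR-1298-5p at 189 CPM and miR-34b-3p at 71.3 CPM but miR-448-3p, another HTR2C arm, at 9.14 CPM, within its 0.690 to 22.2 CPM over all libraries. This was also the VZ library with 1905 CPM of miR-204-5p. The second highest, 349 CPM, was in VZ_18 replicate 1, where miR-204-5p was at 224 CPM and miR-1298-5p at 4.84 CPM. The part of such cells in the level of VZ_18 replicate 2 was not tested.

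**Figure D4:**
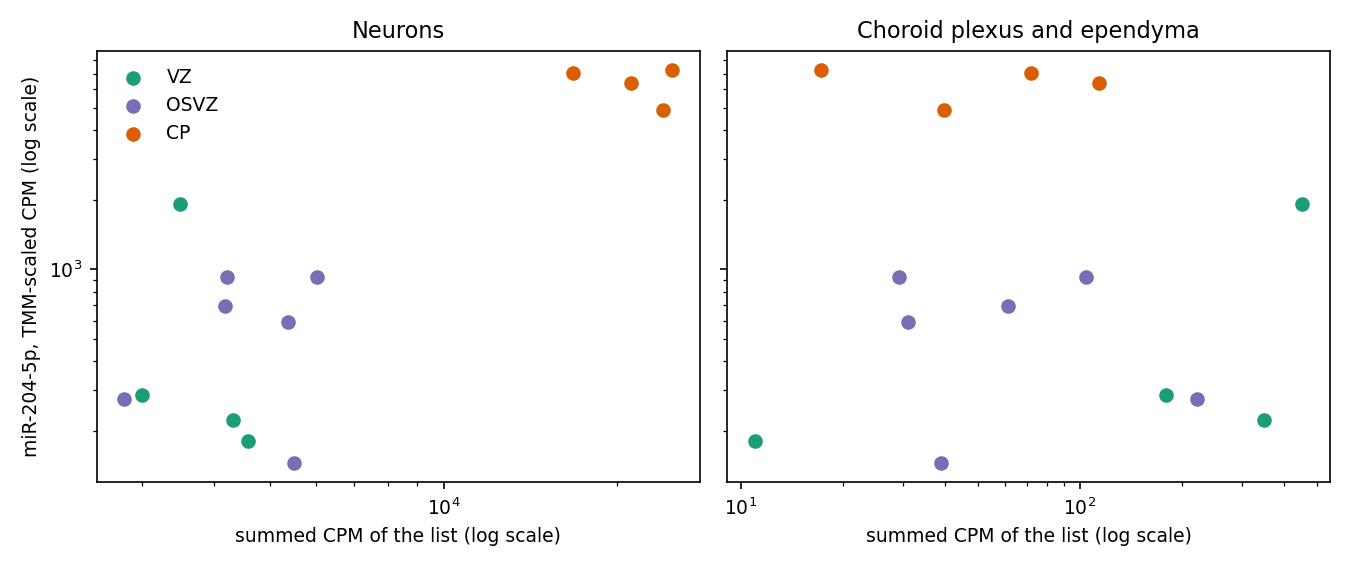
miR-204-5p (vertical log axis, TMM-scaled CPM) against the summed CPM of the neuronal list, left, and of the choroid plexus and ependyma list, right (horizontal log axes), with 1 point per library coloured by zone. The 4 CP points are high on the neuronal axis, at 16730 to 24910 CPM, and low to middling on the choroid plexus axis, at 17.3 to 114 CPM.

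The 4 arms of the oligodendrocyte lineage list also summed higher in every CP library (398 to 766 CPM) than in any of OSVZ (97.5 to 158 CPM) or VZ (115 to 318 CPM), so this sum too was high where miR-204-5p was high. Its part in the result was not tested. The epithelial and sensory list, whose miR-183 family is known from the retina, summed to 82.8 to 121 CPM in CP, 20.9 to 67.0 CPM in OSVZ and 14.6 to 348 CPM in VZ, with 0 of 14 tested arms called against CP by edgeR in either zone. Its highest sums, 348 and 144 CPM, were in VZ_18 replicate 1 and VZ_17 replicate 2. The pigment cell list stayed low, at 6.21 to 16.8 CPM in CP, 1.38 to 12.5 CPM in OSVZ and 0.860 to 32.7 CPM in VZ, and 0 of its 5 tested arms were called. Its highest sums, 32.7 and 29.8 CPM, were in those same libraries, which also had the most miR-211-5p. The part of either list in the miR-211-5p level was not tested. Meningeal and mural arms summed to 806 to 1204 CPM in CP, 1430 to 4961 CPM in OSVZ and 1025 to 2010 CPM in VZ. The most abundant, miR-145-5p, averaged 697, 2102 and 1240 CPM in these zones. Of 10 arms, 1 was higher and 1 lower in VZ than in CP, and 2 were higher and 1 lower in OSVZ. The lower arm was miR-199b-5p in each zone (-2.29 ± 0.71 in VZ and -2.38 ± 0.66 in OSVZ, SE), with a mean of 72.9 CPM in CP. Over all arms, 2.63% were higher and 4.74% lower in VZ, and 2.11% and 4.21% in OSVZ. The endothelial miR-126 arms were at 1547 to 4504 CPM in CP and 1434 to 5288 CPM in OSVZ, with 0 of 2 called. Blood cell arms summed to 83.6 to 197 CPM in CP, 211 to 345 CPM in OSVZ and 344 to 965 CPM in VZ, with 2 of 10 higher in VZ and 1 in OSVZ (2.63% and 2.11% over all arms). Of the 4 oligodendrocyte lineage arms, miR-219-3p was higher in VZ than in CP (2.80 ± 0.72) while both strands of miR-338 were lower (-2.37 ± 0.56 for 3p and -2.41 ± 0.54 for 5p, SE), as they were in OSVZ, beside the shares of all arms just given. The progenitor list summed to 12340 to 21890 CPM in CP, 30830 to 44270 CPM in OSVZ and 35330 to 73740 CPM in VZ. Of its 12 arms, 2 were higher and 1 lower in VZ (2.63% and 4.74% over all arms), and 2 were higher in OSVZ (2.11%). The higher arms were the strands of miR-92b in each zone.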

How the data were processed

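Small RNA libraries were made, per the labels' protocols, from laser-cut pieces with a Qiagen micro kit and DTT and a SOLiD kit with miRNA size selection. The authors deposited raw read counts per miRNA name and arm. Which aligner, build and miRNA annotation they used, and how reads with several matches were handled, is not given in the sources used here. Columns were assigned to set 1 or set 2 from each table's spelling of its regions. Another 12 value columns, whose names fit no label, were left out, and 6 of the 20 labelled samples are not analysed here. The tables list 861 and 868 names.

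Arms were filtered with filterByExpr (1139 of 1656 kept, 99.99% of counts), normalized by TMM, and the quasi-likelihood test of edgeR 4.0.16 (R 4.3.3) was used. Region means were fitted with the set as a block (6 residual and 28.1 prior degrees of freedom), and p-values adjusted by Benjamini-Hochberg over all 1139 arms. Calls were made at adjusted p under 0.05. Each zone weighted its areas equally, with the inner and outer OSVZ averaged first within area 17. SE is the log2 difference over the square root of F. The design was written for 3 sets and fitted to 2. The set is taken as a block because the labels give each its own embryonic day. Deviations from region means correlated within a set with a median r of 0.354 (0.0534 to 0.618), and 20 of 21 pairs were above 0.1.

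Named beyond the family were the 5 most and 3 least alike arms of at least 10 CPM, on log2(CPM + 1), and up to 4 of the most abundant arms of each marker list. The members and lists were chosen with earlier results of these data known. miR-128, miR-20a and miR-18a, also on the lists, were not used here. Shares were tested with exact permutations (Python 3.11.15, scipy 1.17.1). DESeq2 1.42.0 was an alternative, and the fit was tested on simulated data. No sequences or coordinates were used.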

Additional observations from a re-analysis of the deposited data

Results flagged for a closer look

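Values were compared with the others of their zone by Dixon's criterion for 1 distant sample, over 21 groups of 4 to 6 libraries. Chance alone marks about 1 in 20 groups, and 5 were marked, several of them from the same libraries and the same counts. In VZ, miR-204-5p was at 1905 CPM in VZ_18 replicate 2, far above the 180 to 287 CPM of the other 3 libraries. In the same library, miR-211-3p was at 2.32 CPM from 16 counts, and the 3p arm took 5.0% of miR-211 counts, both above the other VZ libraries. In CP, miR-211-5p was at 51.4 CPM in CP_18 replicate 1 against 14.2 to 20.4 CPM in the others, and its share of the 5p counts of both miRNAs was 1.04% there.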

How the results depend on the processing

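Over 23 alternatives, miR-204-5p stayed called and lower in VZ (-4.72 to -3.14) and in OSVZ (-3.69 to -3.09) than in CP, with adjusted p of at most 0.000979. Without the replicate block these were -3.67 and -3.44, and the block changed no call of the family arms. Library totals moved the median of all arms from -0.22 to 0.21 for VZ against CP and from -0.20 to 0.04 for OSVZ against CP, with miR-204-5p at -3.53 and -3.22. For miR-211-5p, DESeq2 called VZ against CP (1.68) and OSVZ against VZ (-1.63). Arms of at least 10 CPM only gave 1.82 for the first, where 93 of 379 arms were called. Its OSVZ against CP value turned to 0.05 with DESeq2 or its size factors, 0.13 with library totals, 0.08 with no filter, 0.07 with arms of at least 10 CPM and 0.08 without VZ_17 replicate 2 and VZ_18 replicate 1. Leaving out those libraries together gave, for inner against outer OSVZ, a call of miR-204-5p (-1.79) and -0.02 for miR-211-5p. It gave -0.09 for miR-204-5p in OSVZ against VZ. For miR-211-3p it gave -0.52 in OSVZ against VZ, 0.41 between the areas in VZ and 1.36 for the interaction of area with VZ against CP. The causes were not tested.

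With single libraries left out, miR-211-5p ranged from -0.37 to 0.32 in OSVZ against CP, -0.31 to 0.57 in inner against outer OSVZ, -1.39 to 0.37 between areas in VZ and -0.26 to 1.64 in the interaction of area with VZ against CP. miR-204-5p ranged from -0.15 to 1.27 in OSVZ against VZ and -2.74 to -0.15 between areas in VZ. miR-211-3p ranged from -0.52 to 3.23 in OSVZ against VZ, -7.0 to 0.29, -1.48 to 0.18 and -2.21 to 1.3 between areas in VZ, OSVZ and CP, and -6.11 to 1.23 and -1.8 to 1.78 in the interactions with VZ and OSVZ. The 3p share of miR-204 ranged from -0.0746 to -0.0469 percentage points (exact permutation p = 0.0381 to 0.151), and the miR-211-5p share from -10.1 to -6.79 (exact permutation p = 0.054 to 0.135).

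Over all arms, 84 were called for VZ against CP, 53 without the block and 169 with DESeq2, and 53 to 120 with single libraries left out. For OSVZ against CP these were 72, 120 with DESeq2, 125 without both VZ libraries, and 44 to 100. For OSVZ against VZ, 1 arm became 28 with DESeq2 and 24 without VZ_17 replicate 1. Between areas in VZ 2 became 22 and 26, and in the interaction with VZ 1 became 8 and 18. Depth limits the 3p arms, whose counts were often under 10.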
